A study of Homo sapiens with 4 samples.

Results

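The 49 genes described here are neighbours on the short arm of human chromosome 10 (10p), from the start of ZMYND11 at 0.134 Mb to the end of COMMD3 at 22.3 Mb. They were chosen by name and position with the difference between METTL3 knockdown and control libraries already known, so every value of that difference is a description and carries no test. All 49 names were found once each among the 60544 genes of the count table, and 44 of them passed the filter on low counts, out of 16802 genes that did. RNA was measured in PC3 cells, an established line from a human prostate cancer, in 4 libraries of poly(A) RNA. In 2 libraries, labelled shNC, the cells carried a control, and in 2, labelled sh812, the cells carried the only other hairpin label of the study, read as the METTL3 knockdown that the series design names. All 4 libraries came from the same line and medium (RPMI-1640 with fetal bovine serum). Whether each arm was a clone or a pool of cells, and whether replicates were separate cultures, is not given in the sources used here, so p-values measure only the spread between these libraries.

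Within the m6A writer complex METTL3 is the enzyme. It places methyl groups on adenosines of messenger RNA (N6-methyladenosine, m6A), a mark that affects splicing, export, translation and decay. The members form no pathway: what they have in common is where they lie. Genes side by side on a chromosome share the number of DNA copies in the cell and can share stretches of open or closed chromatin, and cancer lines such as PC3 carry rearranged chromosomes. This is background, and neither DNA nor chromatin was measured here. Among the members are chromatin regulators, RNA-processing factors, replication and repair proteins, metabolic enzymes, signalling proteins, membrane traffic factors and proteins of the cytoskeleton and matrix.

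Total gene counts ran from 31450648 to 37041330 per library. METTL3 was at 44.3 and 43.6 CPM (gene counts scaled to a common library size with TMM factors) in shNC and at 7.66 and 8.75 CPM in sh812. Its log2 fold change was -2.42 with an SE of 0.11 (Benjamini-Hochberg adjusted p = 5.54e-14, edgeR). Markers fixed for PC3 were high, with KRT8, KRT18, VIM and CD44 summing to 1333 to 1468 CPM. KLK3, a secreted prostate protease listed as near 0 in this line, had 0 counts in each library. The 4 fibroblast markers, most of it COL1A1, summed to 41.8 and 44.6 CPM in shNC and were lower in sum in sh812, at 31.5 and 37.4 CPM. Among them COL3A1 was at 2.93 and 3.95 CPM against 1.28 and 1.12 CPM. The part of these markers in the results below was not tested. Blood cell markers summed to at most 0.844 CPM, with CD3E and HBB at 0 counts.

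Most of the members were lower in sh812, each by a small amount. The median log2 fold change of the 44 tested members was -0.21, which is 86.6% of the shNC level, against -0.01 over all genes tested, and 39 of the 44 were negative. Fitted with edgeR over every gene that passed the filter, 14 members had an adjusted p under 0.05 and were lower, where 5.42% of all tested genes were called lower. The count called higher was 0 in edgeR, in DESeq2 and in limma-voom, where 5.43% of all tested genes were called higher in edgeR. DESeq2 gave no adjusted p for 3 of the 44. At an unadjusted p under 0.05 in edgeR, 21 members were lower and 1, COMMD3, was higher. Since the members were chosen with this contrast known, nothing is read from these shares. In 32 members both sh812 libraries lay under both shNC libraries, an arrangement found in 27.4% of all tested genes, and in 2, PLXDC2 and COMMD3, both lay over them, as in 26.2% of all tested genes. In bulk RNA, less RNA per cell and fewer cells that make it cannot be told apart. In fits with 3 libraries, the lone library of a group is assumed to vary like the other group. The members' median log2 fold change stayed negative in all of these fits. It ran from -0.24, with sh812 replicate 2 left out, to -0.19, with sh812 replicate 1 left out.

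**Figure D1:**
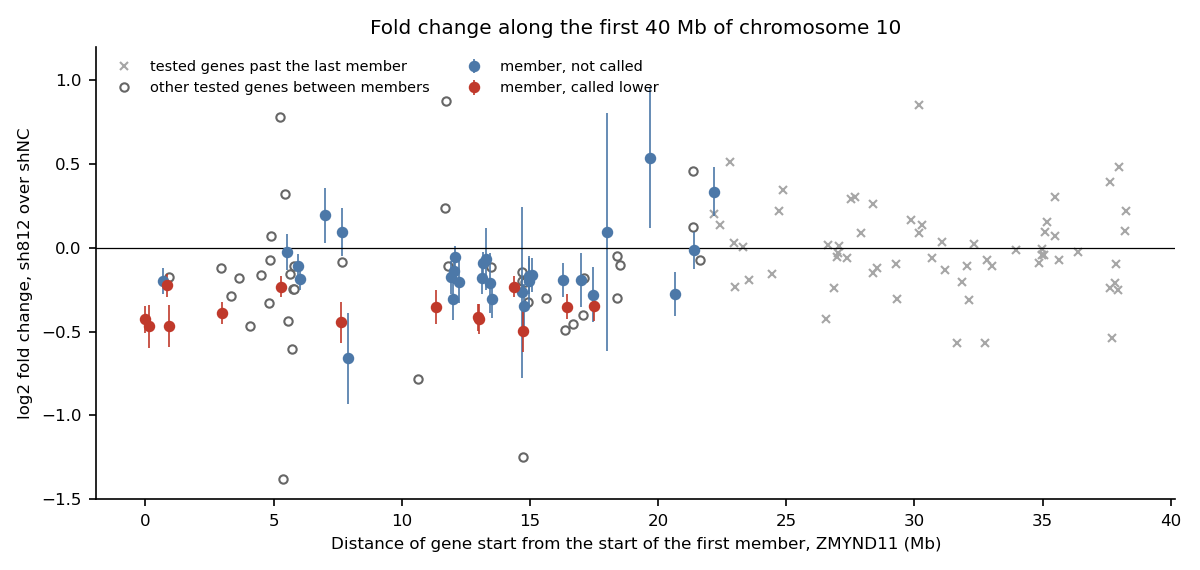
Log2 fold change of sh812 over shNC (vertical axis) for tested genes on chromosome 10, by the distance of each gene's start from that of ZMYND11 in Mb (horizontal axis). Filled points are members with their SE, red where called lower, open circles are other tested genes between them, and crosses are genes past the last member; 1 gene lies outside the vertical range. Most points from 0 to about 18 Mb lie under 0, and points past the last member lie on both sides of it.

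The promoters of 4 members are shown because 2 of them start from a region shared with a second member, and the other 2 belong to members among the called ones. Sequences are from RefSeq (GRCh38.p14), 5′ to 3′ on the gene's strand, from 250 bases before to 50 bases after a start site. Capitals mark matches on either strand to the GC box motif GGGCGG, to the motif CCAAT (the box of that name) or to the TATA box, searched as TATAAA. The windows are chr10:13099913-13100212 on the plus strand for OPTN, chr10:12195938-12196237 on the plus strand for CDC123, chr10:14878616-14878915 on the plus strand for SUV39H2 and chr10:3172792-3173091 on the minus strand for PITRM1.
OPTN: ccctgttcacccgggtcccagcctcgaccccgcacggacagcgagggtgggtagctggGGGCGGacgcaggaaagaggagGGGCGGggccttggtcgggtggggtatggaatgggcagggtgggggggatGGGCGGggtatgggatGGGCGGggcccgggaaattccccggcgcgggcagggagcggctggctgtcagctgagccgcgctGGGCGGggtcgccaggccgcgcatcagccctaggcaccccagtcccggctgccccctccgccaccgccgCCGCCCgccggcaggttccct
CDC123: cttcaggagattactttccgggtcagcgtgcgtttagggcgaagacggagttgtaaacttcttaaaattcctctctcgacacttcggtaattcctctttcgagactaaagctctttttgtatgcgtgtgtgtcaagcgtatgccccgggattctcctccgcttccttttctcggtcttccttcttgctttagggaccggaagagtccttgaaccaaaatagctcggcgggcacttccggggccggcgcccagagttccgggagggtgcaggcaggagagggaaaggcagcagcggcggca
SUV39H2: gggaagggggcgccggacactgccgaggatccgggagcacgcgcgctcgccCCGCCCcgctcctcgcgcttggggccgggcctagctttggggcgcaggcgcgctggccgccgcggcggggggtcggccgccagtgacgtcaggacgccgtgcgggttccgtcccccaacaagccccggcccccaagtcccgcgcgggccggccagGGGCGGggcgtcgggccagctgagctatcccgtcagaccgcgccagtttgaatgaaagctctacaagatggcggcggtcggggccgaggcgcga
PITRM1: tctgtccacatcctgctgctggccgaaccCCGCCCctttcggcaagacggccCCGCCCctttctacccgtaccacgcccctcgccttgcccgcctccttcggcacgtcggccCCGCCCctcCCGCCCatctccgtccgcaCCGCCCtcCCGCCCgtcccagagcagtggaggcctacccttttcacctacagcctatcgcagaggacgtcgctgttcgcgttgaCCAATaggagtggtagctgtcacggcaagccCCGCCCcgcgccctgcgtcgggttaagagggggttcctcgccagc

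The OPTN window held 6 GC boxes, the SUV39H2 window 2, the PITRM1 window 7 with 1 CCAAT box, and the CDC123 window none of the 3 motifs. Other windows of these genes, not shown, held fewer GC boxes: 5 in OPTN, and 6 and 4 in PITRM1. RefSeq lists 95 such windows for the 49 members, several for some genes, and 61.1% of them held a GC box, against 45.0% of the 35116 windows of all genes. A CCAAT box was in 32.6% of member windows and 34.6% of all windows, and a TATA box in 7.37% and 11.5%. The median GC content was 63.0% in member windows and 58.7% in all windows. These matches are descriptions of letters, not binding sites.

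Head-to-head neighbours with nearby start sites were at hand in 2 places. OPTN and CCDC3 are transcribed away from each other from start sites 174 bases apart in RefSeq (for the window shown). RefSeq also lists a start site for CCDC3 at chr10:13001713, far from that of OPTN. OPTN, an autophagy receptor that binds ubiquitin, was at 53.1 and 52.4 CPM in shNC and at 37.9 and 41.2 CPM in sh812. Its groups did not overlap, and the log2 fold change was -0.41 (SE 0.08). CCDC3, a secreted protein, had 2 and 4 counts in shNC and 1 and 2 in sh812, too few for a fold change. NUDT5 and CDC123 start 297 bases apart. NUDT5, an enzyme that splits ADP-sugars, was at 66.4 and 70.1 CPM in shNC and at 59.2 and 64.6 CPM in sh812, a log2 fold change of -0.14 (SE 0.07). CDC123, an assembly factor of the translation initiation factor eIF2, was at 86.8 and 86.6 CPM in shNC and at 86.7 and 80.03 CPM in sh812, with overlapping groups and a log2 fold change of -0.06 (SE 0.07). Neither gene of the second pair was called. The gene bodies of each pair overlap on opposite strands in GENCODE 29, and whether counting used the strand is not given in the sources used here, so their reads may be shared.

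Chromatin and transcription genes were split: of 7 members tested, 2 were called lower, 5 were negative and the median log2 fold change was -0.06. Over all genes tested, 5.42% were called lower and 27.4% had both sh812 libraries under both shNC libraries. Classes by role, here and below, come from members chosen with this contrast known, so nothing is read from their counts. ZMYND11 (ENSG00000015171, chr10:134465-254637 in GENCODE 29), a chromatin reader that binds a methylated histone variant, was at 52.9 and 51.4 CPM in shNC and at 40.5 and 37.1 CPM in sh812. Both knockdown libraries were under both controls, with a log2 fold change of -0.43 (SE 0.08). SUV39H2 (ENSG00000152455, chr10:14878820-14904315), a histone methyltransferase of heterochromatin, was at 17.2 and 20.8 CPM in shNC and at 14.5 and 12.3 CPM in sh812. Its log2 fold change of -0.50 (SE 0.12) was the most negative among the called members, and the gap between its shNC replicates was the widest among them. It overlaps DCLRE1C on the opposite strand. GATA3, a transcription factor of luminal epithelium and T cells, had the most negative value of all tested members, -0.66 (SE 0.27), from 110 and 86 counts in shNC and 66 and 60 counts in sh812, and was not called. MLLT10, a cofactor of histone methylation at transcribed genes, was at 17.5 and 19.7 CPM against 19.4 and 17.4 CPM, a log2 fold change of -0.01 (SE 0.11) whose sign changed with the length trend removed. SFMBT2, a Polycomb group protein, had 0.19 (SE 0.16), and TAF3, a subunit of the general factor TFIID, had 0.09 (SE 0.14). In both of these shNC replicate 2 was the lowest library and the groups overlapped. BEND7 had -0.06 (SE 0.19).

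Genes that bind, process or modify RNA or assemble ribosomes were all negative among the 6 tested, with a median log2 fold change of -0.20 and a range from -0.22 to -0.11. GTPBP4 (ENSG00000107937, chr10:988019-1019936), a nucleolar GTPase needed to build the large ribosomal subunit, was the called one. It was at 116 and 121 CPM in shNC and at 106 and 96.5 CPM in sh812, a log2 fold change of -0.22 (SE 0.07). The share called lower was 5.42% over all genes tested. In each of the 6 genes both sh812 libraries lay under both shNC libraries, as in 27.4% of all genes tested. The others were LARP4B, an RNA-binding protein of the La family, at -0.20, the splicing factors RBM17 at -0.11 and PRPF18 at -0.21, RPP38, a subunit of RNase P, at -0.20, and TRDMT1, a transfer RNA methyltransferase, at -0.19. CELF2, a splicing regulator, did not pass the filter, with 6 and 4 counts in shNC and 8 and 8 in sh812.

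Replication, repair and cell cycle genes showed 2 called members of 4, all 4 negative, with a median log2 fold change of -0.38. Of all genes tested, 5.42% were called lower. MCM10 (ENSG00000065328, chr10:13161554-13211104), which helps to start the replication helicase, was at 35.2 and 33.7 CPM in shNC and at 25.8 and 25.7 CPM in sh812, a log2 fold change of -0.42 (SE 0.09). KIN (ENSG00000151657, chr10:7750962-7787981), a nucleic acid binding protein of replication and repair, was at 15.4 and 15.0 CPM against 11.1 and 11.3 CPM, a log2 fold change of -0.45 (SE 0.12). In both genes the libraries of a group lay close together and the groups were well apart. DCLRE1C, the nuclease Artemis of double-strand break repair, had -0.35 (SE 0.13), with 11.8 and 11.1 CPM in shNC and 8.83 and 9.22 CPM in sh812, and was not called. The fourth is CDC123, named for the cell division cycle and described above, at -0.06 with overlapping groups.

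All 8 metabolic enzymes tested were negative and had sh812 libraries under both shNC libraries, with a median log2 fold change of -0.18. That arrangement of libraries was found in 27.4% of all genes tested, and 5.42% of all genes tested were called lower. PITRM1 (ENSG00000107959, chr10:3137728-3172841), a mitochondrial protease that clears targeting peptides, was the called one. It was at 139 and 133 CPM in shNC and at 108 and 100.4 CPM in sh812, a log2 fold change of -0.39 (SE 0.06). The rest ran from -0.28 for HACD1, a dehydratase of very long chain fatty acid synthesis, to -0.09 for SEPHS1, a selenophosphate synthetase family member. Between them lay PFKFB3, a regulator of glycolysis, at -0.18, PHYH, a peroxisomal enzyme of phytanic acid breakdown, at -0.18, DHTKD1, an enzyme of lysine breakdown, at -0.18, PTER at -0.19 and NUDT5. ECHDC3 did not pass the filter and had at most 4 counts in a library.

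Signalling genes and regulators of small GTPases held 3 called members among 5 tested, all 5 negative, with a median log2 fold change of -0.23. The share called lower over all genes tested was 5.42%. NET1 (ENSG00000173848, chr10:5412551-5458463), an exchange factor that activates RhoA, was at 195 and 197 CPM in shNC and at 156 and 179 CPM in sh812. Its log2 fold change of -0.23 (SE 0.07) became -0.13 without sh812 replicate 1, the lower of the knockdown libraries. USP6NL (ENSG00000148429, chr10:11453946-11611754), which switches off the endosomal GTPase RAB5, was at 30.3 and 30.04 CPM in shNC and at 21.2 and 26.1 CPM in sh812, a log2 fold change of -0.35 (SE 0.10) that became -0.21 without the same library. RSU1 (ENSG00000148484, chr10:16590611-16817528), a Ras suppressor found at focal adhesions, was at 65.2 and 63.2 CPM against 51.4 and 49.3 CPM, with tight replicates and a log2 fold change of -0.35 (SE 0.07). CAMK1D, a calcium-dependent kinase, had -0.21 (SE 0.13). ASB13, a ubiquitin ligase adaptor, had -0.02 (SE 0.11) with overlapping groups. PRKCQ, a protein kinase C of T cells, had 4 counts in shNC replicate 1 and 0 in the others.

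Membrane traffic and protein targeting gave 2 called members of 6 tested, OPTN and STAM, and a median log2 fold change of -0.29. Of all genes tested, 5.42% were called lower. STAM (ENSG00000136738, chr10:17644125-17715914), an adaptor that sorts ubiquitinated cargo at endosomes, was at 33.8 and 32.9 CPM in shNC and at 26.8 and 25.8 CPM in sh812, a log2 fold change of -0.34 (SE 0.09). It is the called member farthest along the chromosome. SEC61A2, a channel subunit of the endoplasmic reticulum, had -0.31 (SE 0.13), and NMT2, which attaches myristate to proteins, had -0.17 (SE 0.11). CDNF, a secreted neurotrophic factor, had 47 and 16 counts in shNC and 28 and 24 in sh812, and its -0.27 (SE 0.51) turned to 0.53 without shNC replicate 1. COMMD3, a component of an endosomal recycling complex, went the other way, at 7.41 and 8.63 CPM in shNC and 9.17 and 11.04 CPM in sh812, a log2 fold change of 0.34 (SE 0.15). It was not called, and the annotation has a readthrough gene, COMMD3-BMI1, over it.

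Of the 5 tested members with roles in the cytoskeleton, adhesion, matrix or membrane, 3 were negative. In edgeR, DESeq2 and limma-voom 0 were called, though DESeq2 gave no adjusted p for 2 of them. At an unadjusted p under 0.05 in edgeR, 2 were lower. FRMD4A, a scaffold of cell polarity, had a log2 fold change of -0.31 (SE 0.11), NEBL, an actin-binding protein, -0.27 (SE 0.13), and FAM171A1, a membrane protein, -0.16 (SE 0.10). PLXDC2, a membrane protein, had 32 and 26 counts in shNC and 42 and 44 in sh812, a value of 0.54 (SE 0.42). CACNB2, a calcium channel subunit, had 9 to 12 counts in each library, and ITIH5, a matrix protein, had 0 in all of them. The 3 less characterised members were all called lower, where 5.42% of all genes tested were. DIP2C (ENSG00000151240, chr10:274190-689668) was at 16.0 and 15.5 CPM in shNC and at 10.2 and 12.5 CPM in sh812, a log2 fold change of -0.47 (SE 0.13). WDR37 (ENSG00000047056, chr10:1049538-1132384) was at 14.8 and 16.7 CPM against 10.9 and 11.9 CPM, a log2 fold change of -0.47 (SE 0.12). FAM107B (ENSG00000065809, chr10:14518557-14774897) was at 133 and 137 CPM against 111 and 119 CPM, a log2 fold change of -0.23 (SE 0.06). In each of the 3 both sh812 libraries lay under both shNC libraries, as in 27.4% of all genes tested.

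**Figure D2:**
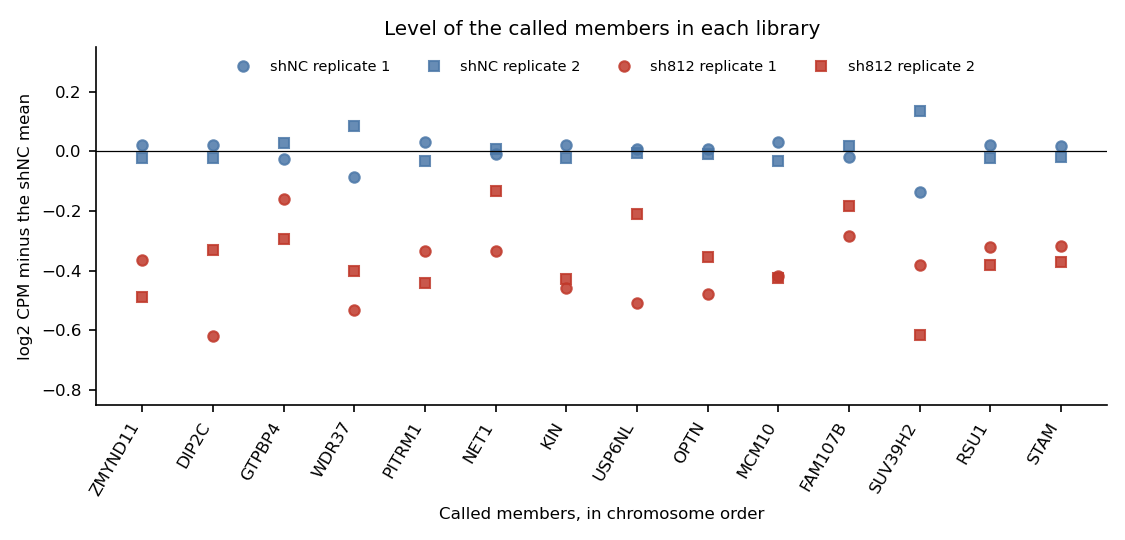
Level of the 14 called members in each library, as log2 CPM minus the mean of the 2 shNC libraries (vertical axis), in chromosome order. Blue points are shNC and red points sh812, with circles for replicate 1 and squares for replicate 2, and the red points lie under the blue ones for every gene.

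Length, base composition and the m6A consensus were read from the transcripts, since the choice of members did not use them. In GENCODE 29 the representative transcripts of the 44 tested members had a median length of 3781 bases, against 3472 bases for 13237 protein-coding genes tested, and a median GC content of 44.1% against 48.4%. The motif GGACT, a frequent form of the m6A consensus, occurred at a median of 0.873 sites per kb in member transcripts and 0.925 per kb in all. It was at 0.790 per kb in the 14 called members and 0.948 per kb in the 30 that were not called. ZMYND11, called lower, and SEC61A2, not called, had 0 such sites. DIP2C, called lower, had 12, the most among the tested members, in a transcript of 7888 bases. That is 1.52 per kb. ASB13, PHYH and CDNF, which were not called, had 2.96, 2.19 and 2.01 per kb. Over all tested genes with a transcript, longer transcripts were lower in sh812 (Spearman's rho = -0.23 across 16627 genes). Across the 44 members, which share these 4 libraries, the same rho was -0.005. With each library's trend on transcript length removed, the members' median was -0.19 and 10 were called lower, where 4.34% of all genes tested were. DIP2C, GTPBP4, KIN and USP6NL were the ones no longer called there, with values of -0.37, -0.15, -0.36 and -0.25.

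The members ran from 0.301 CPM (CACNB2) to 182 CPM (NET1) in the mean of the 4 libraries. Spearman's rho of the log2 fold change with mean log2 CPM was -0.11 across the 44 members and 0.086 across all genes tested. Among the 12 members under 10 CPM the median log2 fold change was -0.13, with 7 negative and values from -0.66 to 0.54. In edgeR, DESeq2 and limma-voom 0 were called lower or higher, though DESeq2 left 3 of them without an adjusted p. At an unadjusted p under 0.05 in edgeR, 1 was lower and 1 higher. The 21 members between 10 and 50 CPM were all negative, with a median of -0.31, and 9 were called lower. All 11 members over 50 CPM were negative too, with a median of -0.20, and 5 were called lower. Of all genes tested, 2.38% were called lower under 10 CPM, 7.12% between 10 and 50 CPM and 8.39% over 50 CPM. The median SE fell from 0.17 to 0.11 to 0.07 over these classes. All 14 called members lay over 10 CPM, and all 5 positive members under it. CPM here is a measure of reads per gene and was not divided by transcript length.

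**Figure D3:**
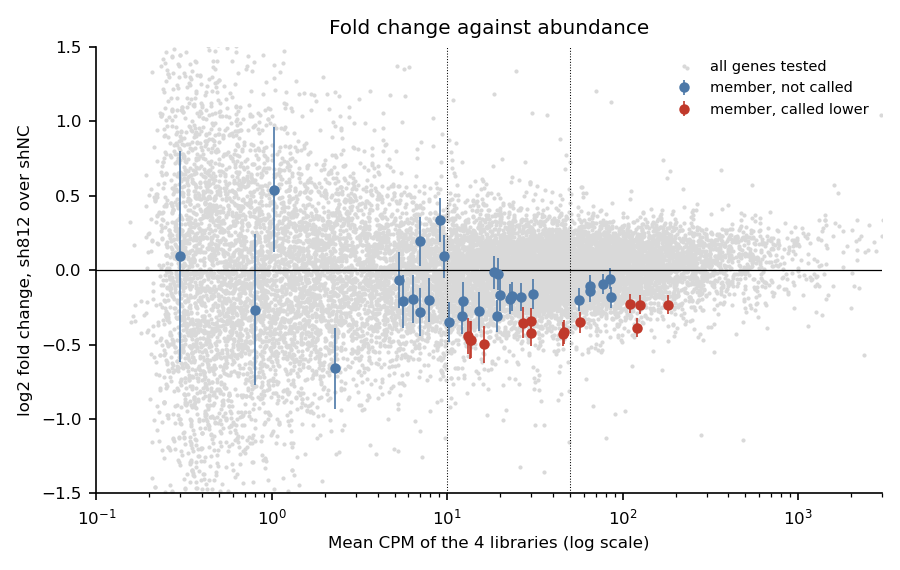
Log2 fold change of sh812 over shNC (vertical axis) against the mean CPM of the 4 libraries (horizontal axis, log scale). Grey points are all genes tested, of which 229 lie outside the axes, blue and red points are members with their SE, and dotted lines mark 10 and 50 CPM; the members over 10 CPM all lie under 0.

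The shift was in both replicate pairs, but the members were chosen with the contrast of these same 4 libraries known. A negative median in each pair is therefore a description and no independent support. As sh812 replicate 1 against shNC replicate 1, the members' median difference in log2 CPM was -0.24, with 39 of 44 negative. As sh812 replicate 2 against shNC replicate 2, it was -0.20, with 38 negative. The crossed pairs gave -0.23 and -0.22, with 37 negative in each. Over all genes tested the 4 medians lay between -0.0095 and 0.0012. Differences within a group, which the choice of members did not use, were small: shNC replicate 2 against replicate 1 had a median of -0.03 over the members, with 25 of 44 negative, and sh812 replicate 2 against replicate 1 had 0.03, with 20 negative. Member by member, the same-numbered pairs had a Pearson r of 0.52 and a Spearman rho of 0.51 across the 44 members, against 0.25 and 0.34 across all 16802 genes tested. Under 10 CPM lay 12 of the 44 members and 7259 of the 16802 genes. The correlations of these lists are therefore not like for like. The pairs share no library but share the scaling and the depth of each gene. SUV39H2 was the called member with the widest gap between the pairs, at -0.25 in the first and -0.75 in the second, while RSU1 had -0.34 and -0.36. In sum, the 49 members held 0.171% and 0.170% of all counts in shNC and 0.139% and 0.142% in sh812.

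**Figure D4:**
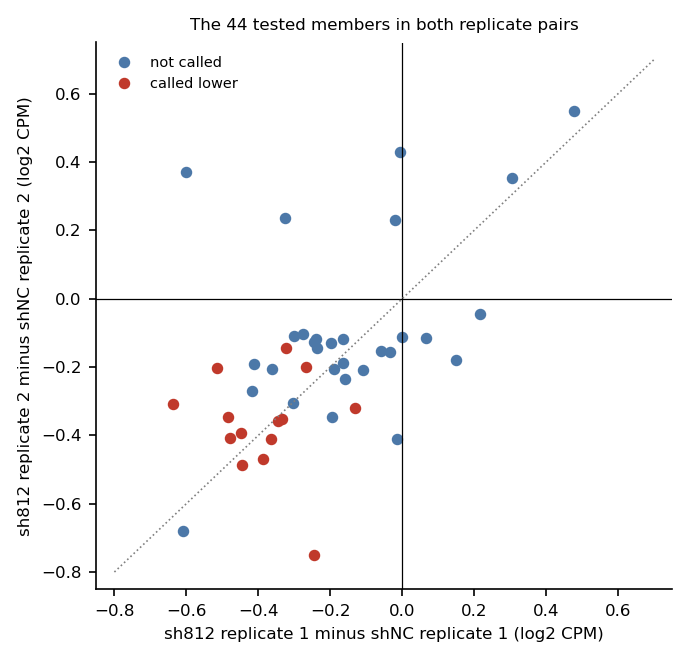
Difference in log2 CPM between sh812 and shNC for the 44 tested members, in the pair of replicates numbered 1 (horizontal axis) and the pair numbered 2 (vertical axis), with a dotted line of equality. Red points are called members, and all of them lie under 0 on both axes.

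The other genes of the interval were taken by position alone, but the interval itself was picked with the difference known, so their values are a description and no independent support. Of 354 annotated genes that start between the outer ends of the first and last member, 40 were tested and were not members. Their median log2 fold change was -0.18, 33 of 40 were negative, and 3 (7.5%) were called lower in edgeR, where 5.42% of all tested genes were. DESeq2 called 1 lower, leaving 16 without an adjusted p, where it called 4.11% of all genes fitted, and limma-voom called 4, where it called 5.54%. The count called higher was 0 with each tool, and 1 was higher at an unadjusted p under 0.05 in edgeR. The 3 called in edgeR were TASOR2, ANKRD16 and MINDY3. TASOR2 was at 89.2 and 75.6 CPM in shNC and at 64.2 and 57.8 CPM in sh812, a log2 fold change of -0.44 (SE 0.08). ANKRD16 had -0.60 (SE 0.17) and MINDY3, a deubiquitinase, -0.30 (SE 0.10). All 3 had sh812 libraries under both shNC libraries. Among the 27 protein-coding ones, 23 were negative and the median was -0.18.

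Along the chromosome the values came close to 0 before the last member was reached. In consecutive stretches of 5 Mb from the chromosome's start, the median log2 fold change of all tested genes was -0.26 (14 genes), -0.16 (19 genes), -0.20 (26 genes), -0.20 (19 genes) and then 0.03 (15 genes). The interval was split at 18 Mb, a position chosen after the values were seen. Before it, 66 of 73 tested genes were negative, with a median of -0.21. Of those 73, 17 (23.3%) were called lower, where 5.42% of all genes tested were. After 18 Mb, 6 of 11 were negative, with a median of -0.01. In edgeR, DESeq2 and limma-voom 0 of these were called, though DESeq2 gave no adjusted p for 5 of the 11. At an unadjusted p under 0.05 in edgeR, 1 was lower and 1 higher. The corresponding members were 37 negative of 39 before it and 2 negative of 5 after it, namely NEBL and MLLT10. No tested gene lies before ZMYND11. Past COMMD3 the next tested genes were BMI1, a Polycomb subunit, at 0.20 (SE 0.07) and called higher, PIP4K2A, a lipid kinase, at 0.14 (SE 0.07), and ARMC3 at 0.51 (SE 0.49), from 17 to 41 counts.

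Farther along, the 564 other tested genes of chromosome 10 had a median log2 fold change of 0.004. Among these, 28 (4.96%) were called lower and 28 higher, where 5.42% and 5.43% of all genes tested were. The medians of their 22 stretches of 5 Mb from 25 Mb on ran from -0.15 to 0.13. Across the 22 other chromosomes taken whole (1 to 9, 11 to 22 and X), the medians ran from -0.06 on chromosome 15 to 0.04 on chromosome 19. These differences between stretches are descriptions, with no test, since the interval was picked with them known.

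**Figure D5:**
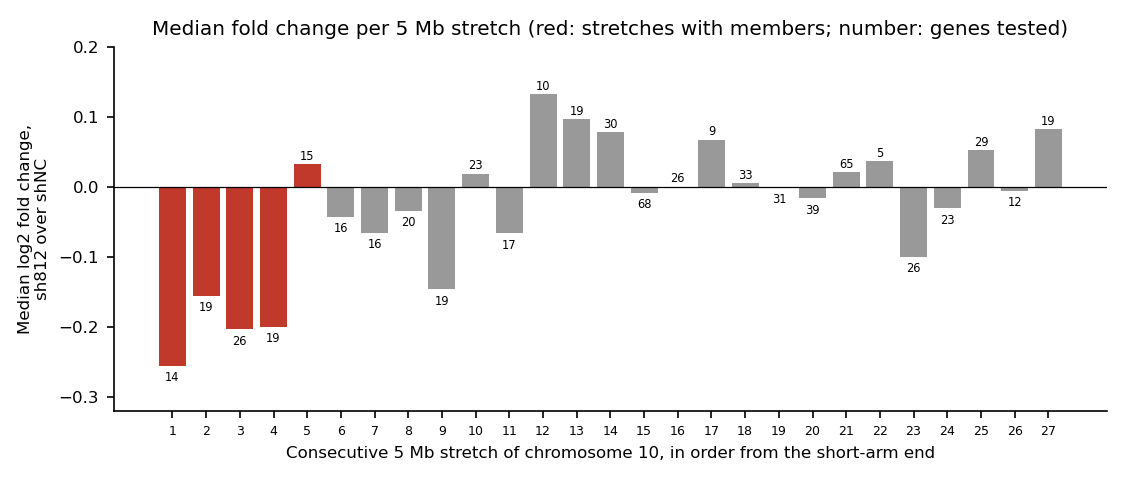
Median log2 fold change of sh812 over shNC (vertical axis) for all tested genes in each consecutive 5 Mb stretch of chromosome 10 (horizontal axis, in order from the end of the short arm). Red bars are stretches that hold members and the number at each bar is the count of genes tested; the first 4 bars are the lowest of the chromosome, from -0.26 to -0.16, and the fifth is at 0.03.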

How the data were processed

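The authors deposited raw read counts per gene. Per the submitters' processing notes, fastp, STAR 2.7.1a, featureCounts and DESeq2 were used with the build hg38, with no role or order given. The annotation release, the strand setting and the unit counted (read or pair) are not given in the sources used here. Libraries keep strand, per the labels' protocols. Of the 49 members, 34 have a gene body that overlaps an annotated gene on the opposite strand, and 18 overlap another protein-coding gene. Pseudogenes of their name are annotated for 6 members, among them RSU1, which was called. Reads may be shared in these genes too.

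Counts were fitted with edgeR 4.0.16 in R 4.3.3 on the whole table (filterByExpr, TMM, glmQLFit, glmQLFTest, no covariate). A call is a Benjamini-Hochberg adjusted p under 0.05 over 16802 genes. Fold changes use a prior count of 0.125 and log2 CPM one of 2. The SE comes from the F statistic. Replicates of a group differed beyond sampling noise (mean chi-square per gene 8.43 in shNC and 4.51 in sh812, genes of 20 counts or more), so each library was 1 replicate. Positions and transcripts are from GENCODE 29 (GRCh38), which held 16635 of the genes tested, with the longest coding transcript of each gene as its representative.

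Members and lists were chosen with earlier results of these data known. Full values are given for called members and head-to-head pairs (start sites within 1000 bases), then for METTL3, the 3 next genes outside and called non-members. In simulated counts for this comparison (16441 genes tested), the fit called 71.4% of genes with a true change of log2 1 and 51.0% of genes with one of 0.5, beside 8 false calls. The members' median change of -0.21 is smaller than either size, so these rates do not cover it. Alternatives used RLE, upper quartile or no scaling factors, other filters, DESeq2 1.42.0, limma-voom (limma 3.58.1), a prior count of 2, a replicate block, each library left out, and removed length and GC trends (lowess, span 0.3). Values of the other markers listed as near 0 in PC3 are not reported here.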

Additional observations from a re-analysis of the deposited data

How the results depend on the processing

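The members' median log2 fold change stayed negative in each alternative, and 0 of the 14 called members changed sign in any. With library size alone it was -0.25, and 17 members were called lower, where 7.90% of all genes tested were. The median of all genes also moved there, to -0.05, and that of the other interval genes was -0.22. With the length trend removed 10 members were called lower, where 4.34% of all genes tested were. Removing the length and GC trends also gave 10, where 4.32% of all genes were called lower. Adding the replicate block to both trends gave 13, where 5.29% of all genes were. In the fits that left no library out, 10 of the 14 kept their call and direction throughout. Leaving out a library gave from 5 (without sh812 replicate 1) to 17 (without shNC replicate 1) called lower, and 0 to 1 called higher, the 1 being COMMD3 without shNC replicate 2. The share of all genes called lower also differed between these fits, each of which leaves 1 library in a group. The counts are therefore not compared with each other or with the main fit. With a library left out, the members' median ran from -0.24 to -0.19 and that of the other interval genes from -0.19 to -0.14. The METTL3 value kept its call in each. The cause of these differences between fits was not tested.

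Of 702 values of single members under alternatives, 16 changed sign, in 6 members that were not called. With the length trend removed BEND7 was at 0.028 and MLLT10 at 0.058. With the length and GC trends removed they were at 0.032 and 0.054, and with the replicate block added at 0.039 and 0.056. With each library left out in turn, BEND7 ran from -0.25 to 0.17, MLLT10 from -0.10 to 0.079, ASB13 from -0.085 to 0.043, TAF3 from -0.051 to 0.27, CDNF from -0.75 to 0.53 and CACNB2 from -0.16 to 0.39.

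Replicate numbers are shared by the groups, but the labels do not say that they mark a shared day or batch, and across genes the deviations of libraries with the same number correlated at r = 0.016 (Pearson). With the replicate block the members' median was -0.20 with the same 14 called lower, where 5.94% of all genes tested were. With 2 libraries per group, the median SE of members under 10 CPM was 0.17, against 0.07 over 50 CPM.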
